A study of Mus musculus with 69 samples.

Results

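The comparison set the lungs of mice given the titanium dioxide nanomaterial (NM) NRCWE-030 against those given NRCWE-025, both at the lower doses of 18 and 54 µg and both collected on day 28. Arrays were chosen by their titles alone, which gave 10 arrays of NRCWE-030 and 10 of NRCWE-025, with 5 mice at each dose of each material, or 20 of the 69 arrays of the series. All mice were female C57BL/6, aged 5 to 7 weeks on arrival and given 1 to 3 weeks to acclimatise, and each received a single intratracheal instillation in water with 2% serum. The 5 vehicle mice of day 28 received the carrier alone and serve here only as a reference level, since both materials share them. Each array held cRNA made from 200 ng of lung RNA of 1 mouse, labelled with Cy5, beside Universal Mouse Reference RNA labelled with Cy3, so an expression level is a log2 ratio of lung to reference and a difference is NRCWE-030 minus NRCWE-025. RNA was taken from a small piece of each frozen lung. The labels give neither how the materials differ nor the hour at which lungs were collected.

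Insoluble particles that reach the alveoli are taken up largely by alveolar macrophages, and the lung responds with cytokines, acute phase proteins and recruited leukocytes. The lung also keeps a circadian clock: the ARNTL (BMAL1) and CLOCK proteins activate genes through E-box sequences, the PER and CRY proteins repress that activation, and the NR1D1 and NR1D2 (REV-ERB) receptors repress Arntl through ROR elements. Dbp, Tef and Hlf encode transcription factors that carry the rhythm to further genes through D-box sequences, with Nfil3 as their repressor.

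On the 20 arrays, between 49.1% and 72.8% of spots were well above background in Cy5 and 0 spots were saturated. The arrays lay on 10 slides scanned on 9 days, and only 3 slides held both materials at the same dose, 1 at 18 µg and 2 at 54 µg, so the difference on those slides is given beside the difference over all arrays. Replicate 5 of NRCWE-030 at 18 µg stood apart. Of the 69 columns of the series matrix, 68 correlated best with their own array across genes, after each gene was centred. Their correlations were 0.943 or more. The column of that mouse correlated at 0.231 with its own array and at 0.608 with another. Its array lay on a slide whose other arrays in the series were of day 1 mice given NRCWE-025. Every other slide of the series held mice of a single day. On 3 arrays (NRCWE-025 54 µg replicate 1, NRCWE-030 54 µg replicate 5 and NRCWE-025 18 µg replicate 4) the fitted background lay far below 0 in both dyes before marked local backgrounds were replaced, and the 2 arrays of replicate 2 of NRCWE-030 had a high fitted Cy3 background. Counts without these arrays follow.

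Averaged over 18 and 54 µg, the lungs given NRCWE-030 held more RNA of clock-controlled genes and less of Arntl, of several heat shock protein genes and of Adm than the lungs given NRCWE-025. At an adjusted p under 0.05 in limma, 70 of 18656 genes were called, which is 0.375% of those tested. Of these, 43 (0.23%) were higher with NRCWE-030 and 27 (0.145%) were lower, and 2064 genes had an unadjusted p under 0.05. The largest called difference was that of Dbp, at 2.09 ± 0.27 (SE) on the log2 scale. The balance of directions depended on the values used: with the scanner's own log ratio 179 genes were called, 134 higher and 45 lower, and with the series matrix 50, of which 21 were higher and 29 lower.

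Both doses were then tested on their own. The test at 54 µg called 15 genes (0.0804%), with NRCWE-030 above NRCWE-025 in 11 and below in 4. This count was 0 when only the groups of the contrast were fitted, and 6 to 46 over single arrays left out, with 46 without NRCWE-030 replicate 5 and 6 without its replicate 2 or 3 or NRCWE-025 replicate 1. At 18 µg, limma called 0 genes (0%). There 1234 genes had an unadjusted p under 0.05, with a smallest adjusted p of 0.0699. Other settings called between 0 and 4 genes at 18 µg. The change of the difference between the doses was also called for 0 genes (0%), with 643 at an unadjusted p under 0.05, so no gene was shown to differ more between the materials at 54 µg than at 18 µg. No array of NRCWE-030 overlapped an array of NRCWE-025 for 5 genes (0.0268% of those tested). Of these, Adm, Arg2 and Vnn1 were called, whereas Dusp4 and Vsig2 were not. Within a dose, 266 genes (1.43%) did not overlap at 18 µg and 195 (1.05%) at 54 µg. Overlap is given below for called genes as a description only, since they were selected on these same arrays.

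**Figure D1:**
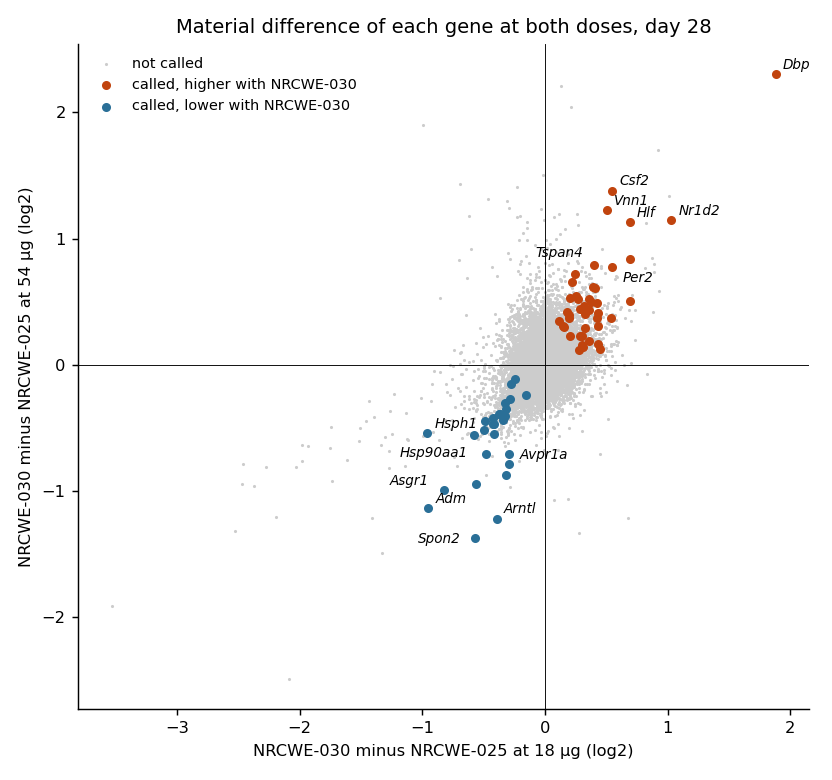
Difference between NRCWE-030 and NRCWE-025 at 18 µg (x axis, log2) and at 54 µg (y axis, log2) for each of 18656 genes, where each point is 1 gene and colours mark the 70 genes called on the mean of the doses. Dbp stands at the upper right (1.88 and 2.30), and Adm (-0.95 and -1.14) and Spon2 (-0.57 and -1.37) at the lower left.

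The count fell when slide or scan day entered the fit. With slide as a random block 28 genes were called, with slide as a fixed block 8, and with scan day as a fixed block 5, and each of these sets lay within the 70. The 8 genes were Dbp, Nr1d2, Nr1d1 and Tspan4, higher with NRCWE-030, and Adm, Rasl11a, Arntl and Hsp90aa1, lower. The 5 genes were Dbp, Nr1d2, Tspan4, Adm and Hsp90aa1. All 70 genes kept their direction under both fixed blocks, and 57 of the 70 had that direction on all 3 slides that held both materials. The 70 were called on these same arrays, those of the 3 slides included, so agreement in direction was partly built in by the selection. The share over all genes was not computed. Without replicate 5 of NRCWE-030 at 18 µg 81 genes were called, without the 3 arrays with a failed background fit 37, without the 2 arrays with a high Cy3 background 25, and with normexp as fitted without replacement 9.

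Among the 12 core clock genes, 3 were called higher with NRCWE-030 (Nr1d2, Per2 and Nr1d1) and 1 lower (Arntl). Among 9 clock output genes, 2 were called higher (Dbp and Hlf) and 0 lower. Over all genes tested 0.23% were called higher and 0.145% lower. Both lists were chosen with earlier results of these data known, so their counts are not independent support. The median difference was 0.06 for the core clock list and 0.17 for the output list, against 0 over all genes tested. The core clock list joins genes that normally peak at opposite hours, so its median says little of its members.

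Dbp encodes a D-box activator with one of the strongest daily rhythms in peripheral tissue. With NRCWE-025 its level was -1.78, -1.01, -1.01, -1.29 and -1.27 in the 5 mice at 18 µg. It was -0.72, -0.81, 0.51, -2.12 and -0.10 in those at 54 µg. With NRCWE-030 the 5 levels of Dbp were 0.83, 0.87, 1.13, 0.73 and -0.52 at 18 µg and 1.498, 1.933, 1.556, 1.988 and 1.304 at 54 µg. The materials did not overlap within either dose, and the lowest NRCWE-030 mouse was the array whose matrix column did not match. The mean difference of 2.09 ± 0.27 had an adjusted p of 2.77e-06 in limma, and 2.23 without that mouse. On the slides that held both materials Dbp differed by 1.74 at 18 µg and by 1.48 and 3.42 at 54 µg. Vehicle mice spread from -1.36 to 0.55, so that Dbp stood at 2.11 ± 0.38 against vehicle with NRCWE-030 at 54 µg (adjusted p = 0.00708 in limma) and at -0.82 ± 0.38 with NRCWE-025 at 18 µg (adjusted p = 0.631).

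Nr1d2, the REV-ERB beta receptor, followed the same order. Its levels with NRCWE-025 were -0.01, 0.38, 0.08, 0.24 and 0.25 at 18 µg and 0.76, 0.50, 0.95, -0.32 and 0.68 at 54 µg. With NRCWE-030 they were 1.43, 1.32, 1.25, 1.14 and 0.94 at 18 µg and 1.67, 1.80, 1.64, 1.81 and 1.37 at 54 µg. Within each dose no mouse of one material reached the range of the other. The mean difference was 1.09 ± 0.15 (adjusted p = 6.69e-06 in limma), and it was 1.06, 0.87 and 1.69 on the shared slides. Vehicle mice lay between 0.42 and 1.33, so the means of the NRCWE-025 groups (0.19 and 0.52) were below the vehicle mean of 0.82 and those of the NRCWE-030 groups (1.22 and 1.66) above it. Of these 4 differences from vehicle none was called, the smallest adjusted p in limma being 0.159, for NRCWE-030 at 54 µg.

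Per2, a repressor of the ARNTL and CLOCK pair, was higher by 0.66 ± 0.09 (adjusted p = 1.82e-05 in limma). Its levels were -0.40, -0.41, -0.12, -0.34 and -0.15 with NRCWE-025 at 18 µg against 0.22, 0.08, 0.50, 0.13 and 0.35 with NRCWE-030. At 54 µg Per2 stood at 0.05, -0.22, 0.22, -0.31 and 0.17 against 0.82, 0.71, 0.93, 1.01 and 0.32. The materials again did not overlap within a dose. The 2 probes of Per2 disagreed in size, with differences of 1.19 and 0.12, and the gene value is their median on each array. The adjusted p of Per2 rose to 0.125 with slide and to 0.134 with scan day in the fit.

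Hlf, a D-box activator related to Dbp, was higher by 0.91 ± 0.18 (adjusted p = 0.00517 in limma). Its levels at 18 µg were 1.31, 1.19, 1.23, 1.17 and 1.20 with NRCWE-025 and 2.10, 1.85, 2.02, 1.56 and 2.02 with NRCWE-030. At 54 µg Hlf ranged from 0.46 to 1.82 with NRCWE-025 and from 2.27 to 2.93 with NRCWE-030, so that neither dose overlapped. Its adjusted p was 0.53 with slide as a fixed block and 0.648 with scan day. Nr1d1, the REV-ERB alpha receptor, was higher by 0.37 ± 0.08 (adjusted p = 0.019 in limma), with 3 probes that differed by 0.90, 0.42 and 0.06. The call of Nr1d1 held with slide as a fixed block (adjusted p = 0.0249) and not with scan day (adjusted p = 0.517). Nr1d1 did not overlap at 54 µg, where it lay between -0.11 and 0.41 with NRCWE-025 and between 0.53 and 0.72 with NRCWE-030.

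Arntl, the activator whose RNA normally peaks opposite to Dbp, was lower by 0.81 on the log2 scale, as a mean difference of -0.81 ± 0.17 (adjusted p = 0.012 in limma). With NRCWE-025 its levels were 0.82, 0.63, 0.68, 0.75 and 0.63 at 18 µg and 0.32, 0.57, 0.35, 0.85 and 0.69 at 54 µg. With NRCWE-030 Arntl was at -0.25, 0.33, 0.20, 0.15 and 1.11 at 18 µg and at -0.78, -0.68, -0.56, -1.02 and -0.28 at 54 µg. At 54 µg the materials did not overlap, and at 18 µg they overlapped through 1 mouse, at 1.11, which is replicate 5 again. The series matrix column of that mouse has -0.12 for Arntl. Without that mouse the mean difference of Arntl was -0.91 (adjusted p = 0.0019 in limma). With slide as a fixed block it was -0.95 (adjusted p = 0.0187), and with scan day -0.66 (adjusted p = 0.511). Against vehicle, Arntl was at -1.12 ± 0.24 with NRCWE-030 at 54 µg (adjusted p = 0.0475) and at 0.11 ± 0.24 with NRCWE-025 at 54 µg (adjusted p = 0.967).

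Of the other 15 clock genes none was called. Bhlhe40 (0.48 ± 0.13, adjusted p = 0.0798 in limma), Tef (0.25 ± 0.07, adjusted p = 0.0876) and the repressor Nfil3 (-0.57 ± 0.16, adjusted p = 0.0838) had the smallest adjusted p among them. Per1 differed by 0.61 ± 0.27 (adjusted p = 0.367), and its sign turned on 2 of the 3 shared slides (-0.36 and -0.46). Clock (0.03 ± 0.10), Rora (0.00 ± 0.12), Npas2 (-0.06 ± 0.06), Per3 (0.08 ± 0.10), Bhlhe41 (-0.05 ± 0.06) and Usp2 (0.11 ± 0.08) had differences near 0 with errors below those of Arntl, Hlf and Dbp. Cry1 and Wee1 were well above background on 0 of the 20 arrays, so their values say little.

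**Figure D2:**
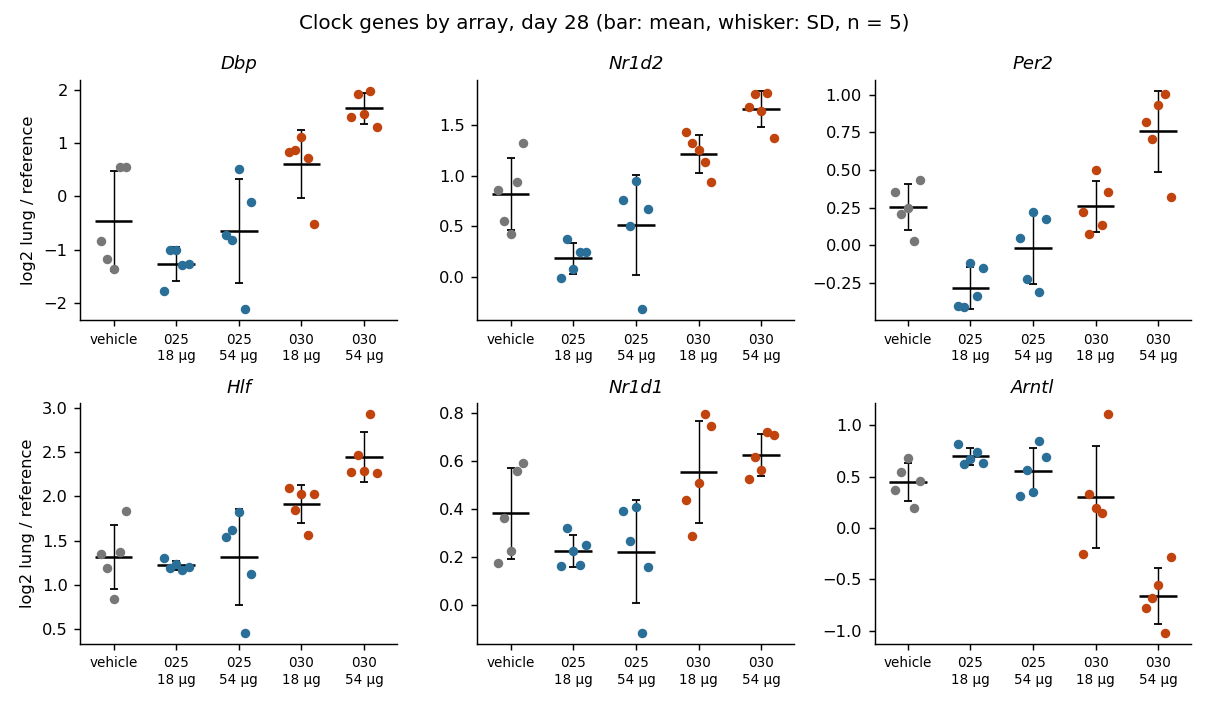
Level of 6 clock genes (y axis, log2 lung over reference) in the vehicle mice and in each material and dose group on day 28 (x axis), with 1 point per mouse, a bar at the group mean and a whisker of 1 SD (n = 5). Dbp, Nr1d2, Per2 and Hlf of NRCWE-030 lie above those of NRCWE-025 without overlap at each dose, and Arntl lies below at 54 µg.

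Promoters of the clock lists were searched for the sequences through which clock proteins are known to act. The RefSeq windows (GRCm38.p6) span 250 bases before to 50 after a start site, and 17 of the 21 genes of the lists had one. On either strand, the E-box CACGTG was held by the windows of 5 genes, against 7.15% of 32851 windows of all genes. The D-box (TTATGTAA or TTACGTAA) was held by 1 gene, against 1.06% of windows. The ROR element core TAGGTCA was held by 2, against 2.61% of windows. A gene counted if any of its windows held the motif, and a gene can have several windows. The counts of genes and the shares of windows are thus unlike units, and no excess is read from them. Of the called clock genes, Arntl held a ROR core 30 bases after the start site, the windows of Dbp, Nr1d2, Nr1d1 and Hlf held none of the motifs, and Per2 had no window to search. The Arntl element is shown because Arntl and the 2 REV-ERB genes differed in opposite directions, and 1 match each of Nfil3, Per3, Tef and Per1 is shown as an example of each motif upstream of a start site. E-boxes also lay upstream of Cry1, Bhlhe41 and Ciart. Capitals mark the motif.
Arntl, ROR core, chr7:113207530-113207558, plus strand: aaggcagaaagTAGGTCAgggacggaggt
Nfil3, ROR core read on the opposite strand, chr13:52981040-52981086, minus strand: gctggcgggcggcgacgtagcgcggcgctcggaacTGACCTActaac
Per3, D-box, chr4:151044828-151044905, minus strand: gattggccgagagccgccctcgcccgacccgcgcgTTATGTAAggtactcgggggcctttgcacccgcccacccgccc
Tef, E-box, chr15:81802511-81802586, plus strand: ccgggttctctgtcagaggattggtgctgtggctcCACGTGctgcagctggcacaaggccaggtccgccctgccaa
Per1, E-box, chr11:69098748-69098823, plus strand: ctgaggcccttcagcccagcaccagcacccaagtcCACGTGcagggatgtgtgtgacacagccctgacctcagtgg
A match is a description of the window and was not tested as a site.

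Of 19 genes of the heat shock and cold list, 5 were called lower with NRCWE-030 and 0 higher, against 0.145% of all genes called lower, and 6 of the 19 had a higher value. The 5 were Hsp90aa1 and Hsp90ab1, the inducible and the constitutive cytosolic HSP90 chaperones, Hsph1 and Hspa4l, HSP110 family co-chaperones, and Hspb1, a small heat shock protein. The list was chosen with earlier results of these data known, so its count of calls is not independent support. The list median was -0.06 against 0 over all genes. Among the 14 that were not called, the inducible HSP70 genes Hspa1a and Hspa1b differed by 0.05 ± 0.17 and -0.01 ± 0.10, and the constitutive Hspa8 by -0.04 ± 0.14. The cold-induced Rbm3 differed by 0.31 ± 0.10 (adjusted p = 0.147 in limma). Hspb6, a small heat shock protein of muscle that was on no list, was also called lower, at -0.39 (adjusted p = 0.0272 in limma).

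Of the 5, Hsp90aa1 had the smallest adjusted p, with a difference of -0.59 ± 0.11 (adjusted p = 0.00517 in limma). With NRCWE-025 its levels were -0.13, -0.35, -0.07, 0.12 and 0.80 at 18 µg and 0.27, -0.09, -0.22, -0.17 and 0.76 at 54 µg. With NRCWE-030 Hsp90aa1 was at -0.23, -0.60, -0.66, -0.63 and 0.08 at 18 µg and at -0.52, -0.96, -0.47, -0.55 and -0.47 at 54 µg. The materials overlapped at 18 µg and not at 54 µg. Vehicle mice lay between -0.25 and 0.23, closer to NRCWE-025, and none of the 4 groups was called against vehicle for Hsp90aa1. On the shared slides the difference was -0.56, -0.33 and -0.30.

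Hsph1 was lower by 0.75 on the log2 scale, with a difference of -0.75 ± 0.18 (adjusted p = 0.0385 in limma) and overlap at both doses. Its range was -1.26 to 0.47 over the 10 NRCWE-025 mice and -1.88 to -0.46 over the 10 NRCWE-030 mice. Hsph1 lost its call when any of 12 of the 20 arrays was left out, with an adjusted p of up to 0.12. Against vehicle, Hsph1 was at -1.25 ± 0.26 with NRCWE-030 at 18 µg (adjusted p = 0.0204 in limma) and at -0.29 ± 0.26 with NRCWE-025 at 18 µg (adjusted p = 0.85). Hspb1 (-0.48 ± 0.10, adjusted p = 0.0166), Hspa4l (-0.45 ± 0.10, adjusted p = 0.0212) and Hsp90ab1 (-0.42 ± 0.10, adjusted p = 0.0385) differed by like amounts. Hsp90ab1 lost its call when any of 15 of the 20 arrays was left out, with an adjusted p of up to 0.115. The direction was the same on all 3 shared slides for each of the 5 heat shock genes. Hsp90aa1 aside, they lost their calls when slide, or scan day, was a fixed term.

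**Figure D3:**
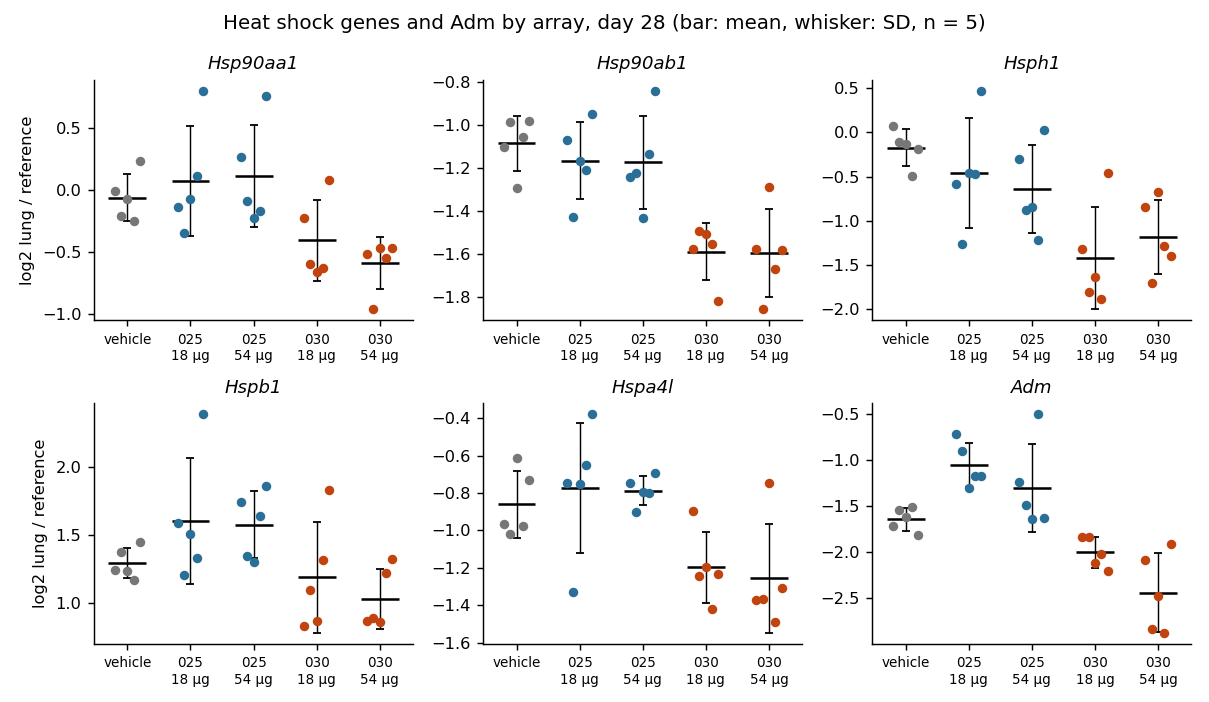
Level of 5 heat shock genes and Adm (y axis, log2 lung over reference) by group on day 28 (x axis), with 1 point per mouse, a bar at the group mean and a whisker of 1 SD (n = 5). All 10 Adm values of NRCWE-030 lie below all 10 of NRCWE-025, whereas the heat shock genes overlap between the materials over the 10 mice of each.

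Adm, which encodes the vasodilator peptide adrenomedullin, was the called gene with the largest decrease, at -1.04 ± 0.16 (adjusted p = 0.000111 in limma). With NRCWE-025 its levels were -0.72, -0.90, -1.30, -1.17 and -1.17 at 18 µg and -1.23, -1.49, -1.64, -0.50 and -1.63 at 54 µg. With NRCWE-030 Adm was at -1.84, -1.83, -2.12, -2.01 and -2.20 at 18 µg and at -2.09, -2.83, -2.48, -2.87 and -1.91 at 54 µg. No mouse of one material overlapped the other. The vehicle mice, between -1.82 and -1.51, lay above all 10 NRCWE-030 mice and overlapped the NRCWE-025 mice, and none of the 4 groups was called against vehicle for Adm. Its call held with slide (adjusted p = 0.00513) and with scan day (adjusted p = 0.0184) as a fixed block.

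Other genes called lower included receptors and secreted proteins. Avpr1a, the V1a vasopressin receptor, differed by -0.50 ± 0.09 (adjusted p = 0.000771 in limma), and its materials did not overlap at 54 µg. Spon2, an extracellular matrix protein, differed by -0.97 ± 0.21 (adjusted p = 0.0138), with values of -0.45, 0.11, -0.64, 0.43 and -0.71 for NRCWE-025 against -1.59, -1.86, -1.73, -1.92 and -1.01 for NRCWE-030 at 54 µg. Asgr1, a subunit of the asialoglycoprotein receptor, differed by -0.91 ± 0.18 (adjusted p = 0.00675), with both NRCWE-025 group means of 1.53 and 1.52 above the vehicle mean of 0.87. Dio2, the deiodinase that activates thyroid hormone (-0.57 ± 0.13), Rnd1 (-0.75 ± 0.18), Rasl11a, a small GTPase (-0.59 ± 0.15), Ccnjl (-0.54 ± 0.13) and the transcriptional regulator Eya1 (-0.51 ± 0.10) completed the 12 largest decreases with Adm, Arntl, Hsph1 and Hsp90aa1. Rnd1 went the other way (0.26) on the shared slide of 18 µg.

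Genes called higher included a cytokine and several enzymes of macrophages and epithelium. Csf2, which encodes the cytokine GM-CSF that alveolar macrophages depend on, differed by 0.96 ± 0.22 (adjusted p = 0.0247 in limma). Its levels at 54 µg were 0.83, 1.33, 1.13, 0.75 and 0.81 with NRCWE-025 and 3.33, 2.65, 2.66, 1.60 and 1.498 with NRCWE-030, without overlap, whereas at 18 µg the ranges of 0.81 to 1.26 and 1.04 to 1.89 overlapped. Vehicle mice lay between 1.13 and 1.39 for Csf2, and NRCWE-030 at 54 µg stood at 1.11 ± 0.31 against vehicle (adjusted p = 0.254).

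Vnn1, a pantetheinase, differed by 0.87 ± 0.19 (adjusted p = 0.0222 in limma). Its levels were 1.78, 1.59, 1.96, 1.75 and 1.79 with NRCWE-025 at 18 µg against 2.18, 2.05, 2.43, 2.18 and 2.54 with NRCWE-030. At 54 µg Vnn1 stood at 1.85, 1.88, 1.70, 1.57 and 1.76 against 3.65, 3.46, 3.50, 2.24 and 2.05. No mouse overlapped between the materials, and 2 of the 5 NRCWE-030 mice at 54 µg lay with those at 18 µg. These 2 mice were also the lowest of their group for Csf2, and theirs are the arrays that shared a slide with NRCWE-025 at that dose.

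Arg2, the mitochondrial arginase, differed by 0.77 ± 0.18 (adjusted p = 0.0247 in limma) and did not overlap over the 20 arrays. Its range was 0.49 to 1.03 with NRCWE-025 and 1.24 to 1.98 with NRCWE-030, and the vehicle mice, between 1.098 and 1.696, overlapped NRCWE-030 and lay above all 10 NRCWE-025 mice. Csf2, Vnn1 and Arg2 kept their direction but not their call under the fixed blocks, with differences of 0.57, 0.34 and 0.41 for slide and adjusted p of 0.948 or more.

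Tspan4, a tetraspanin, differed by 0.60 ± 0.10 (adjusted p = 0.000771 in limma) and kept its call under every block. Its levels at 54 µg were -0.79, -0.98, -1.07, -1.38 and -0.92 with NRCWE-025 and -0.08, -0.17, -0.40, -0.17 and -0.34 with NRCWE-030. Tspan4 overlapped at neither dose. Rbpjl (0.60 ± 0.13), Ano9 (0.51 ± 0.10), Prnd (0.50 ± 0.10) and Cables1 (0.48 ± 0.11) completed the 12 largest increases with the genes above. On 1 of the 3 shared slides Rbpjl (-0.26) and Prnd (-0.15) had the opposite sign. The sialic acid receptors of myeloid cells Cd33 (0.44) and Siglec1 (0.37) and the epithelial chloride channel Cftr (0.29) were also among the 70. The probes of Siglec1 disagreed in size, at 0.58 and 0.15, and so did those of Cftr, at 0.54 and 0.03. The weaker Cftr probe was well above background on 2 of the 20 arrays. Siglec1 stood at -0.025 on the shared slide of 18 µg.

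**Figure D4:**
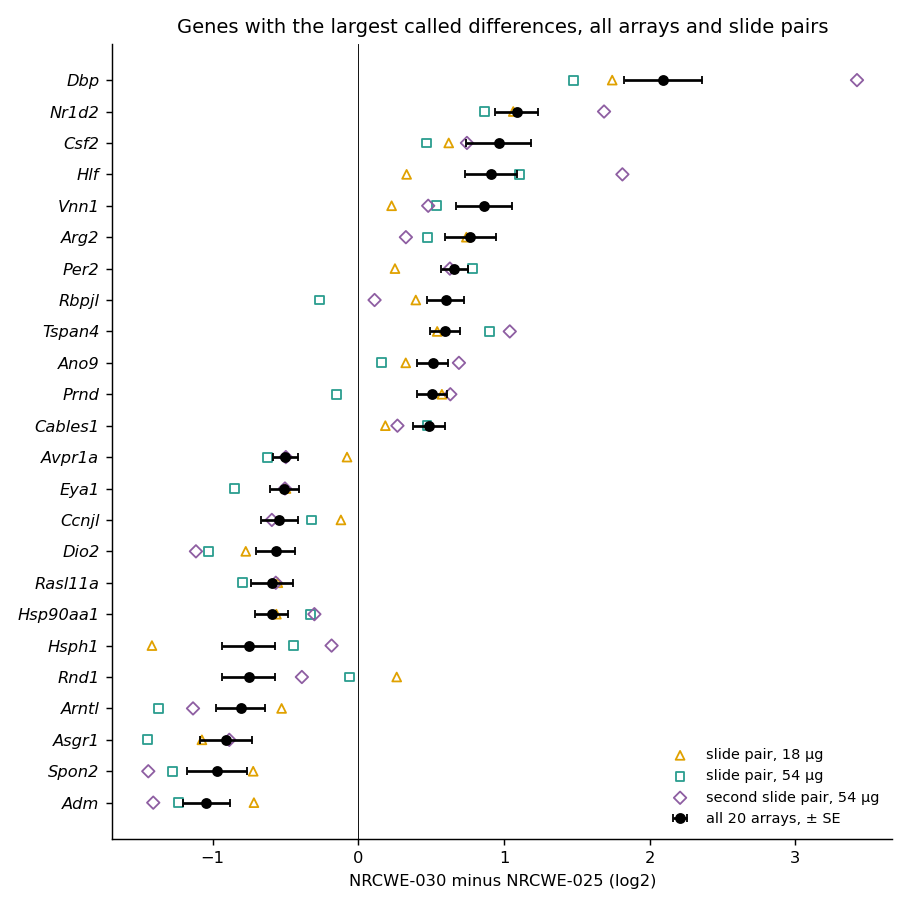
Difference between NRCWE-030 and NRCWE-025 (x axis, log2) for the 24 genes with the largest called differences (y axis), as the mean over all 20 arrays with its SE (filled points) and on each of the 3 slides that held both materials at 1 dose (open symbols, 1 pair of arrays each). Dbp ran from 1.48 to 3.42 and Adm from -1.41 to -0.72 over the slides, and Rbpjl, Prnd and Rnd1 each had 1 slide with the opposite sign.

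The lists of particle response genes gave 0 calls on the mean of the doses, where 0.375% of all genes were called, a share at which lists of this size hold few or none. None of 15 acute phase genes, 21 chemokines, 14 macrophage activation genes, 11 complement genes, 24 interferon-stimulated genes or 15 Nrf2 targets passed the test. Members of several lists nevertheless leaned one way, with all 24 interferon-stimulated genes, all 14 macrophage activation genes and 10 of 11 complement genes higher with NRCWE-030, and all 15 Nrf2 targets lower. Genes of a list are correlated, and 50.2% of all genes were higher. The medians were 0.24 for interferon-stimulated genes, 0.25 for macrophage activation, 0.44 for complement and -0.08 for Nrf2 targets, against 0 over all genes. The first 3 lists had larger medians at 54 µg (0.53, 0.35 and 0.73) than at 18 µg (-0.09, 0.10 and 0.03), whereas that of the Nrf2 targets was -0.19 at 18 µg and -0.01 at 54 µg. The interferon value rested on 2 mice: the list's median level at 54 µg of NRCWE-030 was 2.295, 1.689, 0.310, 0.233 and 0.295, against 0.095 to 0.5 with NRCWE-025, and the median level over the 10 mice of each material was 0.35 with NRCWE-030 and 0.41 with NRCWE-025. Without NRCWE-030 54 µg replicate 1 the median difference of this list was 0.11. Without NRCWE-025 18 µg replicate 5 that of the Nrf2 targets was -0.01. The complement level at 54 µg of NRCWE-030 was 3.281 and 3.401 in replicates 1 and 2, the same 2 mice. It was 2.463, 2.549 and 2.494 in the others, against 1.655 to 2.723 with NRCWE-025 and 2.379 to 2.921 in vehicle mice. Without replicate 2 the complement median difference was 0.30. Macrophage activation at 54 µg stood at 0.587, 0.341, 0.589, -0.063 and -0.06 with NRCWE-030, against -0.134 to 0.094 with NRCWE-025.

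The smallest p in these lists belonged to the macrophage receptor Trem2 (0.62, 95% interval 0.22 to 1.03, adjusted p = 0.187 in limma), followed by the Nrf2 target Srxn1, which encodes sulfiredoxin (-0.31, -0.51 to -0.11, adjusted p = 0.187). Next were the lectin receptor gene Clec4n (0.62, 0.20 to 1.04, adjusted p = 0.211) and Gclm, a subunit of the enzyme that starts glutathione synthesis (-0.21, -0.35 to -0.07, adjusted p = 0.223). Lcn2, an iron-binding acute phase protein (1.13, 0.35 to 1.91, adjusted p = 0.223), complement C2 (0.61, 0.18 to 1.04, adjusted p = 0.233) and the chemokine Ccl12 (0.75, 0.22 to 1.27, adjusted p = 0.237) followed. These intervals are not adjusted, and genes picked by small p have intervals that leave out 0 by selection. On the shared slides, that of 18 µg first, Lcn2 differed by 0.06, 0.10 and 0.12 and Trem2 by -0.19, 0.29 and 0.51. Ccl12 differed there by -1.16, 0.33 and 0.19, and C2 by 0.41, 1.13 and 1.67. The interval for Saa3, the main acute phase gene of the particle-exposed mouse lung, ran from -0.88 to 1.78, and that for Ccl2 from -0.25 to 1.19. Those of the oxidative stress genes Hmox1 (-0.30 to 0.23) and Nqo1 (-0.31 to 0.16) were narrower. On the shared slide of 18 µg the medians were -0.15 for complement, -0.06 for macrophage activation and -0.18 for interferon-stimulated genes. On the 2 shared slides of 54 µg they were 0.32 and 0.17 for complement, 0.21 and 0.08 for macrophage activation, and -0.005 and 0.008 for interferon-stimulated genes. With slide as a fixed block they were 0.23, 0.09 and 0.16.

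Of the other lists, none of 23 extracellular matrix, 24 immediate early, 15 glucocorticoid response, 22 cholesterol, 23 mitosis, 17 DNA replication, 13 p53 target and 14 cytochrome P450 genes was called. Median differences of these lists lay between -0.08 and 0.03. The study derived 10 biclusters, sets of genes, from public data on lung disease models and scored them by the dose effect in nanomaterial studies. It describes no test between materials, so the count here is of an unlike measure. The biclusters held 1 called gene in all, Ofd1 of bicluster-4 (0.29, adjusted p = 0.0291 in limma), beside 0.375% over all genes. Ofd1 lost its call when any of 13 of the 20 arrays was left out. Bicluster-9 had a median of -0.95 with all 17 genes lower, and bicluster-8 one of 0.29 with all 15 genes higher, both with 0 called. The SD of the list's level within groups was 1.38 for bicluster-9 and 0.39 for bicluster-8. It is the spread of single mice and not the error of the difference. Many genes of bicluster-9, such as Myh6, Myl7, Actc1 and Tnni3, are also among the heart muscle markers below, so the 2 lists are not separate results. On the shared slides the median of bicluster-8 was -0.15 at 18 µg and -0.04 and 0.03 at 54 µg.

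Markers of tissue other than alveolar lung varied widely from mouse to mouse, and no marker of any list was called between the materials. Of 20 heart muscle markers tested, 19 were lower with NRCWE-030, 11 at an unadjusted p under 0.05 and 0 called. Their median difference was -0.95. The SD of the list's level within groups was 1.26, which is the spread of single mice and not the error of the difference. Their median level ran from 0.01 to 3.22 over the NRCWE-030 mice, from 0.00 to 3.99 over the NRCWE-025 mice and from 0.71 to 2.96 in the vehicle mice. The median over mice was 0.08 with NRCWE-030 and 2.72 with NRCWE-025. At 18 µg, 4 of 5 NRCWE-030 mice lay between 0.02 and 0.12 and 4 of 5 NRCWE-025 mice between 1.69 and 3.56. At 54 µg the materials were mixed, at 1.53, 3.22, 2.92, 0.01 and 0.02 with NRCWE-030. With NRCWE-025 they stood at 2.77, 1.22, 3.99, 0.90 and 2.66. Less of such tissue in the piece taken and less RNA per cell cannot be told apart in whole-tissue RNA.

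Fat markers followed with a median of -0.34 (10 of 11 lower), airway secretory markers with -0.86 (5 of 9 lower) and smooth muscle markers with -0.33 (6 of 6 lower). Mesothelial markers went the other way, at 0.50 with 5 of 5 higher, whereas their median difference at 162 µg was -0.41. Alveolar type 2 markers differed by a median of 0.24 (9 of 9 higher) and alveolar macrophage markers by 0.32 (9 of 10 higher). On the shared slides, that of 18 µg first, the type 2 medians were -0.035, 0.095 and 0.001. Those of macrophage markers were -0.03, 0.15 and -0.04. The SD of the list's level within groups was 1.00 for fat, 1.59 for airway secretory and 0.26 for smooth muscle markers. It was 0.695 for mesothelial, 0.19 for type 2 and 0.395 for macrophage markers. In none of these lists was a gene called. All 9 type 2 markers and all 10 macrophage markers tested were well above background, as the labelled tissue should hold.

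With the heart marker level of each array as a covariate 81 genes were called, 47 of them among the 70. Of the clock genes, Dbp (2.15, adjusted p = 4.79e-06 in limma), Nr1d2 (1.04), Per2 (0.66), Hlf (0.87), Nr1d1 (0.36) and Arntl (-0.86) stayed called. Of the heat shock genes, Hsp90aa1 (-0.54), Hspb1 (-0.48) and Hsp90ab1 (-0.46) stayed called, whereas Hsph1 (-0.59, adjusted p = 0.117) and Hspa4l (-0.33, adjusted p = 0.0676) did not. Adm stood at -1.09 and Asgr1 at -0.67, both called, and Dio2 at -0.38 (adjusted p = 0.0991). The part of the other marker lists in these differences was not tested.

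**Figure D5:**
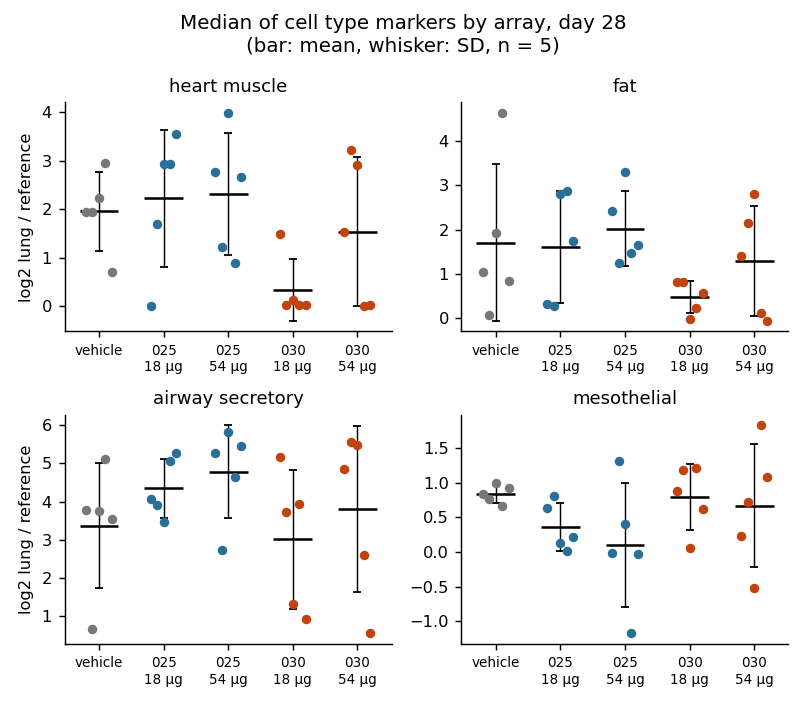
Median level of the heart muscle, fat, airway secretory and mesothelial marker lists (y axes, log2 lung over reference) by group on day 28 (x axes), with 1 point per mouse, a bar at the group mean and a whisker of 1 SD (n = 5). Heart muscle markers stand near 0 in 4 of 5 mice given 18 µg of NRCWE-030 and above 1.6 in 4 of 5 given 18 µg of NRCWE-025. At 54 µg the materials overlap, from 0.01 to 3.22 with NRCWE-030 and from 0.90 to 3.99 with NRCWE-025.

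The difference between the materials at the lower doses was then set against that at 162 µg on the same day. No gene was called (0%), with 379 at an unadjusted p under 0.05 in limma. The clock genes differed in the same direction at 162 µg, where NRCWE-030 minus NRCWE-025 was 1.75 ± 0.41 for Dbp, 0.96 ± 0.22 for Nr1d2, 0.94 ± 0.14 for Per2, 1.16 ± 0.27 for Hlf and -1.33 ± 0.25 for Arntl. Of these, Per2 (adjusted p = 0.000208) and Arntl (adjusted p = 0.0137) were called at 162 µg, whereas Dbp, Nr1d2 and Hlf (each with an adjusted p of 0.134) were not. Adm stood at -0.70 ± 0.24 at that dose. Tspan4 stood at 0.845 ± 0.15 and was called there (adjusted p = 0.00739 in limma), whereas Spon2 (-1.48 ± 0.31, adjusted p = 0.0596) and Avpr1a (-0.51 ± 0.13, adjusted p = 0.249) were not. The heat shock genes differed less at 162 µg, with -0.23 ± 0.17 for Hsp90aa1 and 0.18 ± 0.27 for Hsph1, and the change was not called. The smallest p belonged to Ano9, higher by 0.73 ± 0.19 at the lower doses than at 162 µg, and to Pgm2l1 (-0.35 ± 0.10) and Lrrc29 (0.33 ± 0.11), each with an adjusted p of 1.

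Against day 1 at the same doses, 2 genes differed in their material difference (0.0107%), with 2196 at an unadjusted p under 0.05. Nxph3, a secreted neurexophilin, changed by 0.86 ± 0.15 (adjusted p = 0.0055 in limma), because its day 1 difference of -0.93 ± 0.11 had no counterpart on day 28 (-0.07 ± 0.11). Snph, syntaphilin, changed by 0.42 ± 0.08 (adjusted p = 0.0242), from -0.19 ± 0.06 to 0.23 ± 0.06. Neither call held with slide or scan day as a block. For the clock genes the day 1 difference was 1.18 ± 0.27 for Dbp, 0.66 ± 0.09 for Per2 and -0.94 ± 0.17 for Arntl, all called (adjusted p = 0.0317, 1.76e-05 and 0.00232). It was 0.53 ± 0.15 for Nr1d2, 0.51 ± 0.18 for Hlf and 0.19 ± 0.08 for Nr1d1, not called (adjusted p = 0.118, 0.266 and 0.391). The change between days was called for none of these 6. Adm differed by -0.43 ± 0.16 and Hsp90aa1 by -0.24 ± 0.11 on day 1. Called on day 1 in limma were also Tspan4 (0.79 ± 0.10, adjusted p = 1.34e-06) and Eya1 (-0.59 ± 0.10, adjusted p = 0.000502). So were Avpr1a (-0.37 ± 0.09, adjusted p = 0.0333), Spon2 (-0.86 ± 0.21, adjusted p = 0.0474) and Dtx4 (-0.47 ± 0.10, adjusted p = 0.0128). Csf2 (0.30 ± 0.22), Vnn1 (0.16 ± 0.19), Arg2 (0.14 ± 0.18) and Asgr1 (-0.09 ± 0.18) were not.

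Among the genes whose difference changed most from 18 to 54 µg, Nr4a1, an immediate early nuclear receptor, had the smallest p, with a change of -1.89 ± 0.48 and an adjusted p of 1 in limma. Its levels at 18 µg were 0.29, 0.14, 0.87, -0.31 and 0.35 with NRCWE-025 against 1.16, 1.86, 1.17, 0.66 and -0.13 with NRCWE-030. At 54 µg Nr4a1 stood at 0.00, 0.66, 1.19, 1.48 and 0.27 against -0.35, -1.08, -0.15, -0.34 and -0.57. The order of the materials thus turned between the doses, with overlap at 18 µg and none at 54 µg, in a comparison that did not pass the test. Ank3 (-0.62 ± 0.17) and Wdr13 (-0.37 ± 0.10) followed, also with an adjusted p of 1.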

How the data were processed

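Lung RNA of 69 mice was hybridised to Agilent Whole Mouse Genome 4x44K arrays against reference RNA, with no dye swap, and the deposited scanner files came from Feature Extraction 11.0.1.1 per the file headers. They hold spot and local background signals as linear intensity, and a deposited log10 ratio of Cy5 over Cy3. The deposited series matrix holds log2 ratios, which the authors normalised by LOWESS array by array. It served as an alternative.

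Values were recomputed with limma 3.58.1 in R 4.3.3. Where the scanner marked a local background as an outlier, the median of the unmarked ones of that array took its place, followed by normexp correction (offset 50). Loess followed within each array, then the median over spots, probes and symbols. Of 41174 probes, 27479 (66.7%) had a RefSeq symbol (GRCm38.p6, used for names, and for promoter windows), which gave 18656 genes tested, 93 symbols with a missing value being left out. The array design names an earlier build.

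One limma fit held all 14 groups. Contrasts were NRCWE-030 minus NRCWE-025 at 18 µg, at 54 µg, their mean and their change, and the mean against that at 162 µg and on day 1. Tests were two-sided and adjusted by Benjamini-Hochberg over all genes, and adjusted p-values in the text are limma's. Named were the 12 largest called differences in each direction on the mean, 5 per dose, 4 per other contrast (or the 3 smallest p) among genes well above background on at least 5 of 10 arrays of a material, and called members of each list with up to 3 others. The members and lists were chosen with earlier results of these data known. Alternatives covered background, normalization, probe choice, a filter on dim genes, blocks, moderation and leaving out arrays. Alternatives without doubted arrays and with the heart marker covariate were chosen after seeing the data. Scripts were tested on simulated data. The precision is limited by the number of arrays and by the slides. The main fit took arrays as independent, whereas arrays of a slide correlated at 0.314 in the fit with slide as a random block. Most slides of the comparison held only 1 material, so SE and adjusted p of the main fit may be too small.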

Additional observations from a re-analysis of the deposited data

Results flagged for a closer look

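Among 31 genes named by contrast, each tested in 4 groups of 5 mice, 4 of 124 groups held 1 mouse far from the others, where chance gives about 1 in 20. Dbp stood at -0.52 in replicate 5 of NRCWE-030 at 18 µg, with the others between 0.73 and 1.13. Snph stood at 0.57 in the same mouse, with the others between 0.30 and 0.37. The series matrix column of that mouse, which did not match its scanner file, has 0.84 for Dbp and 0.19 for Snph. The scanner file came from a slide whose other arrays in the series were of day 1. Every other slide held mice of a single day. Which of the records belongs to the mouse is not known and was not tested. Hsp90aa1 stood at -0.96 in replicate 2 of NRCWE-030 at 54 µg, with the others between -0.55 and -0.47. Pgm2l1 stood at 0.031 in replicate 4 of NRCWE-025 at 18 µg, with the others between 0.23 and 0.30.

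The difference between the materials changed from day 1 to day 28 for Nxph3, by 0.86, and for Snph, by 0.42, both called in limma.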

How the results depend on the processing

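None of the 36 results on single genes, which were chosen on these same arrays, reversed its direction under the alternatives run. List medians near 0 did turn: with scan day as a block chemokines went from 0.16 to -0.002 and acute phase genes from 0.03 to -0.03, and with slide as a fixed block glucocorticoid response genes from 0.03 to -0.01 and ciliated cell markers from 0.06 to -0.17. On the mean of 18 and 54 µg 70 genes were called. That count was 9 with normexp without replacement, 30 without background correction, 179 with the scanner's log ratio, 28 with slide as a random block, 8 with slide and 5 with scan day as a fixed block, 37 without the 3 arrays with a failed background fit and 25 without the 2 arrays with a high Cy3 background. Leaving out 1 array at a time gave 31 to 117 calls, with 31 without NRCWE-030 54 µg replicate 2, 45 without its replicate 1, 36, 117, 37 and 45 without NRCWE-025 54 µg replicates 1, 3, 4 and 5, and 32 and 41 without NRCWE-025 18 µg replicates 1 and 5.

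At 54 µg the count of 15 was 4 with normexp without replacement, 9 without background correction, 23 with the filter on dim genes, 24 with slide as a random block, 7 with scan day as a block, 9 with the ordinary test, 0 with only the groups of the contrast, 6 without the arrays with a high Cy3 background and 34 with the heart marker covariate, and 6 to 46 over single arrays left out (46 without NRCWE-030 replicate 5, 8 without its replicate 1, 6 without its replicate 2 or 3 or NRCWE-025 replicate 1, and 7 and 8 without NRCWE-025 replicates 4 and 5). At 18 µg the count of 0 was 2 with the series matrix or only the groups of the contrast, 1 with the scanner's log ratio or slide as a random block, 4 with the covariate, and 0 to 2 over single arrays left out (1 without NRCWE-030 18 µg replicate 5, 2 without NRCWE-025 54 µg replicate 4). The change with dose and the difference from 162 µg had 0 calls with every single array left out. Between day 28 and day 1 the count of 2 was 1 with normexp without replacement, the series matrix, only the groups of the contrast or the covariate, 0 without background correction, with quantile normalization or with any block, and 1 to 5 over single arrays left out (5 without NRCWE-030 18 µg replicate 5, 1 without NRCWE-025 54 µg replicate 2 or 5). Dbp, Nr1d2, Tspan4 and Adm kept their calls under all alternatives. The causes of these shifts were not tested.

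No analysis paired by replicate number was possible, because replicate numbers were given in accession order and pair no mice. Slide and scan day entered as blocks in the alternatives above.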
